A study of Mus musculus with 2 samples.

Results

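The genes of the voltage-gated calcium channel alpha1 subunits were followed across brainstem nuclei of 1 wildtype (WT) and 1 heterozygous (HET) mouse library. The members were chosen by name, as Cacna1a, Cacna1b, Cacna1c, Cacna1d, Cacna1e, Cacna1g, Cacna1h and Cacna1i, which are 8 of the 25556 genes in the deposited counts. All 8 were detected in both libraries and all 8 passed a minimum of 200 UMIs (unique molecular identifiers, each standing for 1 captured RNA molecule). The HET mouse carried Scn1a A1783V/WT, a missense knock-in allele that impairs the sodium channel NaV1.1 and is used as a model of Dravet Syndrome, a severe childhood epilepsy. The allele was released from its floxed stop by Sox2-Cre, which acts in the early embryo, so the brain, its glia and its vessels all carry it. The WT mouse was of the same breeding with intact Scn1a, and both were untreated females of C57Bl6 background at postnatal day 41. Whole dissected brainstem was frozen, and nuclear RNA was read from its 3' ends in droplets, and a seizure before collection was no condition for inclusion.

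An alpha1 subunit forms the pore of a voltage-gated calcium channel and carries the sensors that open it when the membrane depolarises. CaV1 channels (L-type, Cacna1c and Cacna1d) couple activity to transcription and drive slow depolarisation, CaV2 channels (P/Q-type Cacna1a, N-type Cacna1b, R-type Cacna1e) admit the calcium that releases transmitter at nerve terminals, and CaV3 channels (T-type, Cacna1g, Cacna1h and Cacna1i) open near the resting potential and drive bursts. In the brainstem these currents shape breathing rhythm, pacemaking and the output of serotonergic and cholinergic neurons.

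The families can be read in the sequence of the pore. Each of the 4 repeats of an alpha1 subunit has a loop whose acidic residue selects calcium, and the stretches below hold the codon of that residue in capitals with 12 coding bases on either side, read from the GENCODE vM21 transcripts (GRCm38, which is mm10). They are shown because the codon in repeats III and IV separates CaV3 from the other members. The 8 lines give repeat III, and each codon lies within a coding exon.
Cacna1c: gtctccaccttcGAAgggtggccagag
Cacna1d: gtctcaacttttGAGggctggcccgcg
Cacna1a: gtgtccacaggaGAGggctggccacag
Cacna1b: gtgtccacgggaGAGgggtggcccatg
Cacna1e: gtctctacagggGAAggatggcctcag
Cacna1g: ctggcctccaagGATggctgggttgac
Cacna1h: ctgtcatccaagGATggctgggtaaac
Cacna1i: ttggcctccaagGATggctgggtgaac

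The repeat III codon was a glutamate codon (GAA or GAG) in the 2 CaV1 and 3 CaV2 genes and an aspartate codon (GAT) in the 3 CaV3 genes. Repeat IV divided the genes the same way, whereas repeats I and II carried a glutamate codon in all 8. The first repeat is given for 1 gene of either kind, in the same notation.
Cacna1c: tgtatcaccatgGAGggctggacagac
Cacna1g: gtcatcacactgGAGggctgggtcgac
On the mm10 assembly the repeat III codons stood at chr6:118656124-118656126 on the minus strand in Cacna1c (exon 27 of 48) and at chr14:30100708-30100710 on the minus strand in Cacna1d (exon 27 of 49). Those of the CaV2 genes stood at chr8:84581338-84581340 on the plus strand in Cacna1a (exon 27 of 47), at chr2:24651092-24651094 on the minus strand in Cacna1b (exon 28 of 47) and at chr1:154444883-154444885 on the minus strand in Cacna1e (exon 29 of 47). Those of the CaV3 genes stood at chr11:94426471-94426473 on the minus strand in Cacna1g (exon 24 of 38), at chr17:25383508-25383510 on the minus strand in Cacna1h (exon 24 of 35) and at chr15:80376807-80376809 on the plus strand in Cacna1i (exon 24 of 37). The A1783V change of the HET mouse lies in Scn1a and in none of these genes.

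The WT library held 9259 nuclei and 70301390 UMIs, with a median of 5456 UMIs a nucleus, and the HET library held 9022 nuclei and 66176778 UMIs, with a median of 5646. Levels are UMIs per 1000000 UMIs of the same nuclei (CPM), and an interval in brackets is an exact 95% interval that covers counting error only. With 1 library per genotype there is no replicate, so no test between WT and HET was possible and animal, library and genotype cannot be told apart. A gene was counted as higher or lower in HET when the log2 ratio of its CPM lay more than 0.32 above or below 0, and such a gene is said to be called or past the threshold. The median share of ribosomal protein UMIs was 0.696% in WT nuclei and 0.407% in HET nuclei, 23 barcodes occurred in both libraries, and the median log2 ratio over the 16347 genes with at least 200 UMIs was -0.10, against 0.10 over the 2542 of them that span at least 100 kb. The part of these differences in the ratios below was not tested.

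Over all nuclei the 8 genes took 146493 UMIs in WT (0.208% of the library) and 126810 in HET (0.192%). Cacna1a, the main channel of fast transmitter release, reached 689 CPM in WT (683 to 695) and 563 CPM in HET (557 to 569), the difference being -0.29 on the log2 scale (-0.31 to -0.27). Cacna1b, the N-type channel, gave 218 CPM in WT and 188 in HET (log2 ratio -0.21, -0.24 to -0.18), and Cacna1e, the R-type channel, gave 239 CPM in WT and 246 in HET (log2 ratio 0.04, 0.01 to 0.07). Over all nuclei the P/Q-type and N-type genes were thus lower in the HET library and the R-type gene was nearly level, and none of the 3 passed the threshold. These values also hold the different make-up of the libraries. When each cluster had the same weight in both libraries, the log2 ratios were -0.25 for Cacna1a, -0.09 for Cacna1b and 0.22 for Cacna1e.

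The CaV1 genes moved apart. Cacna1c, the L-type channel also of heart and smooth muscle, was at 407 CPM in WT (403 to 412) and 494 CPM in HET (489 to 500), a log2 ratio of 0.28 (0.26 to 0.30). Cacna1d, the L-type channel that opens at less depolarised potentials, was at 469 CPM in WT (464 to 474) and 360 CPM in HET (355 to 364), a log2 ratio of -0.38 (-0.41 to -0.36). The higher library was therefore HET for Cacna1c and WT for Cacna1d, and their intervals lay on opposite sides of 0.

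The T-type genes were sparse. Cacna1g gave 34.3 CPM in WT and 34.6 in HET (log2 ratio 0.02, -0.07 to 0.10), Cacna1h gave 10.7 and 9.11 (log2 ratio -0.23, -0.39 to -0.07), and Cacna1i gave 17.1 and 21.5 (log2 ratio 0.33, 0.22 to 0.44). Over all nuclei only Cacna1i was higher in the HET library beyond counting error, and the intervals of Cacna1h and Cacna1i rest on 751 and 1202 UMIs in WT and 603 and 1425 in HET. With the same cluster weights in both libraries the log2 ratios were 0.30 for Cacna1g, 0.05 for Cacna1h and 0.40 for Cacna1i.

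Past the threshold, 1 of the 8 genes was higher in HET (Cacna1i), 1 was lower (Cacna1d) and 6 were not called, with a median log2 ratio of -0.10. Of all 16347 genes tested 12.9% were higher and 28.8% lower, and of the 2542 genes of at least 100 kb, a length that all members but Cacna1g and Cacna1h reach, 16.3% were higher and 6.61% lower. The share of members called was no larger than these backgrounds in either direction when all genes are taken. Among the long genes the ratio of Cacna1d stood at the 5.66th percentile and that of Cacna1a at the 7.40th, while Cacna1c stood at the 79.7th. Both calls were close to the threshold: the log2 ratio of Cacna1i was 0.31 without the neuron.5 cluster, and that of Cacna1d was -0.24 when each cluster had the same weight in both libraries.

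**Figure D1:**
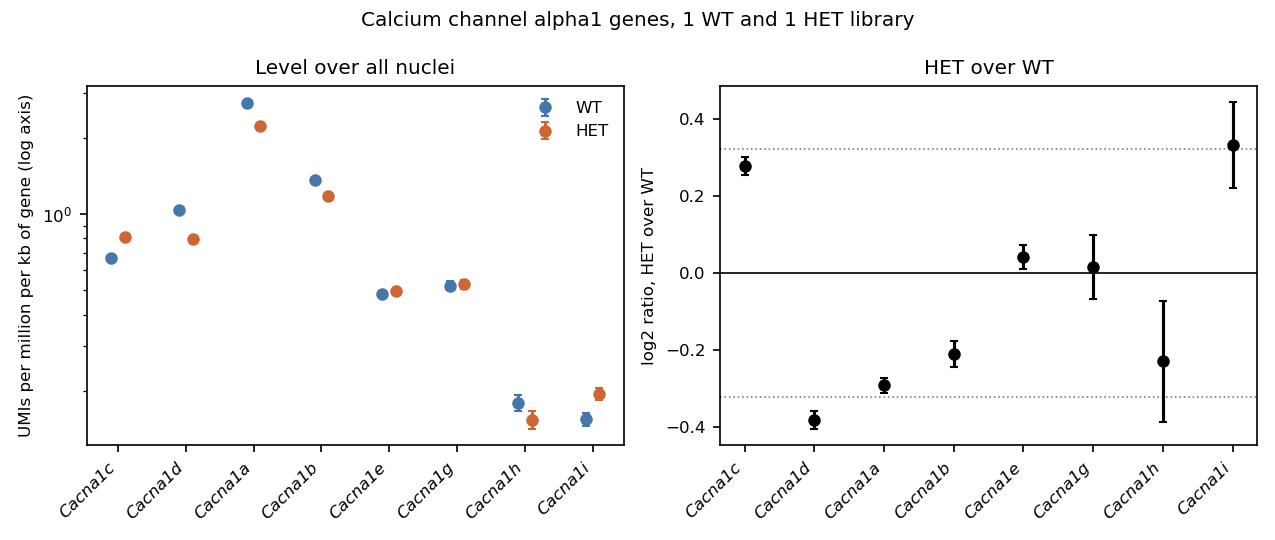
Left, level of each gene over all nuclei in CPM per kb of gene span (log axis), WT in blue and HET in orange, with exact 95% counting intervals that are mostly smaller than the points. Right, log2 ratio of HET over WT with its exact 95% interval, the dotted lines marking the threshold on either side of 0: Cacna1c (0.28) and Cacna1i (0.33) lie above 0, and Cacna1d (-0.38), Cacna1a (-0.29), Cacna1b (-0.21) and Cacna1h (-0.23) below it.

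Because counts from nuclear RNA can grow with gene length, genes were compared with each other only per kb of gene span. On that scale Cacna1a was highest at 2.74 CPM per kb in WT and 2.24 in HET, over 252 kb at chr8:84388440-84640246. Cacna1b followed at 1.37 and 1.18 CPM per kb over 159 kb at chr2:24603887-24763152. The order of these 2 genes was the same in both libraries.

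The CaV1 genes changed places on this scale. Cacna1d stood at 1.04 CPM per kb in WT and 0.796 in HET over 452 kb at chr14:30039939-30491455, and Cacna1c at 0.669 and 0.811 over 609 kb at chr6:118587240-119196418. Cacna1d was thus above Cacna1c in WT and just below it in HET. Cacna1e gave 0.483 and 0.497 CPM per kb over 494 kb at chr1:154390731-154884501, next to Cacna1g at 0.521 and 0.527 over 65.8 kb at chr11:94408391-94474198. The lowest were Cacna1h, at 0.180 and 0.153 CPM per kb over 59.5 kb at chr17:25374285-25433783, and Cacna1i, at 0.154 and 0.194 over 111 kb at chr15:80287238-80398279, whose order differed between the libraries.

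Some annotated genes overlap the members. Gm16183 is an antisense gene that overlaps Cacna1a and had 6845 UMIs in WT and 4369 in HET. Dcp1b overlaps Cacna1c on the other strand, with 3462 and 2877 UMIs, and Dcp1a and Chdh likewise overlap Cacna1d. How strand entered the counting is not given in the sources used here, so the values of these pairs may share reads.

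The deposited labels placed 6118 WT and 5393 HET nuclei in neuronal clusters and the rest in glial, vascular and ependymal clusters. The clusters were built from these same counts, so levels between clusters are descriptions without a test. The neuronal genes Rbfox3, Snap25 and Syt1 stood at 257, 636 and 1331 CPM in the neuronal clusters. Levels were taken in 32 groups of cluster and subcluster with at least 50 nuclei, and WT and HET were compared in the 12 of 16 clusters and 27 subclusters with at least 30 nuclei in each library. The cluster neuron.6 (120 WT and 5 HET nuclei) could not be compared, and neuron.5 held 42 WT and 332 HET nuclei.

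**Figure D2:**
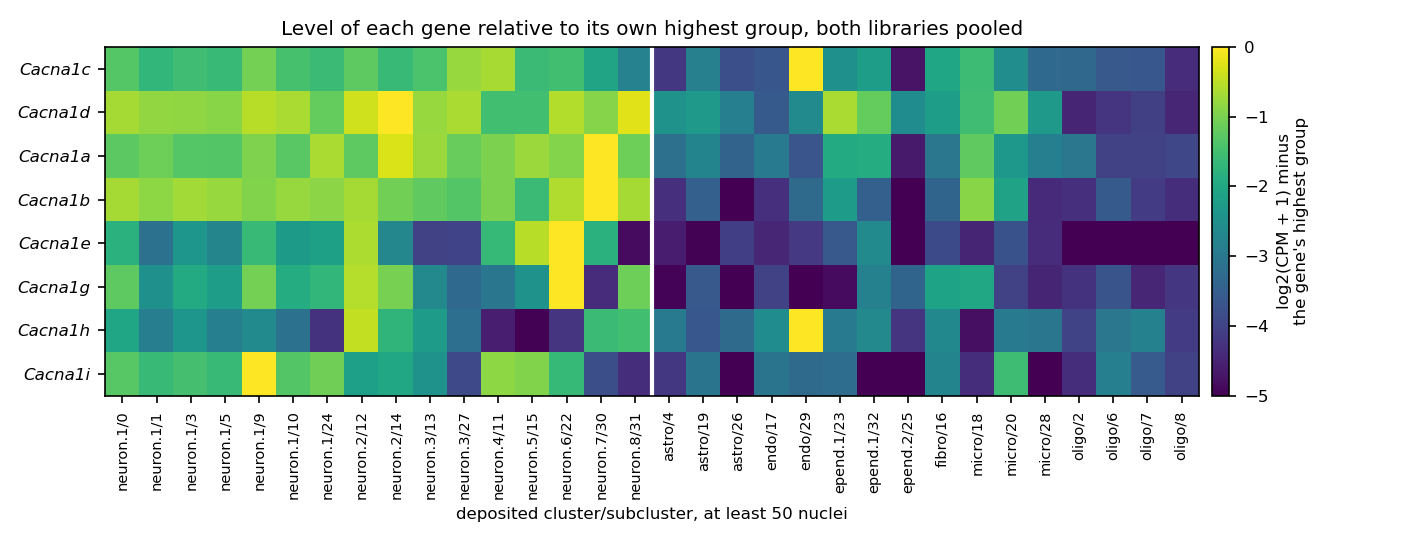
Level of each gene in 32 groups of deposited cluster and subcluster (columns, neuronal left of the white line), both libraries pooled, as log2(CPM + 1) minus the value of the gene's own highest group. Values below -5 have the darkest colour. The peaks differ between genes: Cacna1a and Cacna1b in neuron.7/30, Cacna1e and Cacna1g in neuron.6/22, Cacna1c and Cacna1h in endo/29, Cacna1d in neuron.2/14 and Cacna1i in neuron.1/9.

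The presynaptic genes Cacna1a and Cacna1b peaked in neuron.7. There, where the serotonin transporter gene Slc6a4 reached 709 CPM and Tph2, the gene of serotonin synthesis, 1298 CPM, Cacna1a stood at 1686 CPM in WT and 1389 CPM in HET. Both values lay above those of every other of the 12 compared clusters, the next being neuron.2 with 1049 and 864 CPM. Cacna1b was likewise highest in neuron.7, at 439 CPM in WT and 386 in HET, above neuron.1 at 253 and 235. The pooled shares of nuclei with a Cacna1a UMI after thinning every nucleus to 1000 UMIs were 79.5% in neuron.7 and 49.7% over all neuronal nuclei, at median depths of 11527 and 8055 UMIs before thinning. The cluster neuron.7 has 46 WT and 33 HET nuclei.

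Cacna1e was the least even of the CaV2 genes. It reached 1248 CPM in WT nuclei of neuron.6, where 2088 of its UMIs were counted, and 693 and 736 CPM in WT and HET nuclei of neuron.5. In neuron.5 the cerebellar granule cell genes Gabra6 and Fat2 stood at 376 and 183 CPM. In neuron.2 the subclusters parted: Cacna1e was at 776 CPM in WT and 897 in HET in neuron.2/12, while its sister neuron.2/14 led for Cacna1a, at 1395 and 1090 CPM. In neuron.8, where Chat and Slc5a7 of the acetylcholine pathway stood at 158 and 243 CPM, Cacna1e was at 42.3 CPM in WT, and in neuron.3 at 66.8 and 81.7 CPM. These are among the lowest Cacna1e values of the neuronal clusters, in nuclei where Cacna1a stood at 755 CPM (neuron.8, WT) and at 1042 and 778 CPM (neuron.3).

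The CaV1 genes had different peaks. Among neurons Cacna1c was highest in neuron.4, at 739 CPM in WT and 909 in HET, clear of neuron.3 at 469 and 637, and in neuron.8 it was at 194 CPM in WT. Cacna1d ran the other way, at 386 and 244 CPM in neuron.4, and at 710 CPM in WT nuclei of neuron.8. Its highest compared cluster was neuron.2, at 750 and 684 CPM, and within it neuron.2/14 reached 841 and 764 CPM. The ratio of the L-type genes therefore differed widely between neuronal groups in both libraries.

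Outside neurons Cacna1c was highest in endo/29, at 1019 CPM in WT (45 nuclei, 105 UMIs) and 1769 CPM in HET (41 nuclei, 155 UMIs). In that subcluster the mural cell genes Pdgfrb, Rgs5 and Kcnj8 stood at 1416, 939 and 430 CPM, and the endothelial genes Flt1 and Cldn5 at 184 and 42.0 CPM. In the other subcluster, endo/17, Flt1 and Cldn5 stood at 3158 and 2192 CPM, Pdgfrb at 135 and Rgs5 at 1136 CPM, and Cacna1c at 78.5 CPM in WT and 175 in HET. Cacna1h also had its highest pooled level in endo/29, 62.9 CPM from 12 UMIs (5 in WT and 7 in HET), which is too few to compare the libraries. Cacna1d was at 572 CPM in WT and 357 in HET in epend.1, which holds 2 unlike subclusters. In epend.1/23, of 82 WT and 42 HET nuclei, the ependymal genes Foxj1 and Dnah12 stood at 84.6 and 2703 CPM and Cacna1d at 634 and 363 CPM. In epend.1/32, of 47 WT and 3 HET nuclei, they stood at 0 and 27.6 CPM, while the oligodendrocyte precursor genes Pdgfra and Vcan stood at 791 and 1049 CPM, and Cacna1d was at 374 CPM in WT.

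Among neurons the T-type genes were each highest in a few groups. Cacna1g was at 135 CPM in WT nuclei of neuron.6 and at 71.5 and 88.2 CPM in neuron.2, against 39.3 and 40.7 CPM over all neuronal nuclei. Cacna1h was at 52.7 CPM in WT and 30.5 in HET in neuron.2/12, against 11.8 and 9.63 CPM over all neuronal nuclei. Cacna1i was highest in neuron.1/9, at 60.4 and 57.6 CPM, where the glycine transporter gene Slc6a5 stood at 167 CPM, against 19.8 and 25.7 CPM over all neuronal nuclei. Among neurons the T-type genes thus peaked in different groups, and neuron.2/12 was a group in which Cacna1e, Cacna1g and Cacna1h were all above their neuronal level in both libraries.

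Neighbours in the order of clusters often overlapped. Of the 11 neighbouring pairs among the 12 compared clusters, both libraries of the higher lay above both of the lower in 7 for Cacna1b, in 5 each for Cacna1a, Cacna1e and Cacna1h, in 4 for Cacna1d, in 3 each for Cacna1c and Cacna1i, and in 1 for Cacna1g. The top cluster was apart from its follower for all members except Cacna1i, whose level in neuron.5 was 12.7 CPM in WT from 2 UMIs and 41.5 in HET.

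Neuronal nuclei were also divided by transmitter genes, into 1497 WT and 1696 HET glutamatergic nuclei and 2619 WT and 2057 HET inhibitory nuclei. Cacna1e was lower in inhibitory nuclei, at 228 CPM in both libraries, than in glutamatergic nuclei, at 346 CPM in WT and 334 in HET. The log2 ratio of inhibitory over glutamatergic nuclei was -0.60 in WT and -0.55 in HET, and -0.43 and -0.50 with a stricter division. Cacna1c was at 426 and 517 CPM in inhibitory and 506 and 632 CPM in glutamatergic nuclei, log2 ratios of -0.25 and -0.29, and -0.43 and -0.32 with the stricter division. For Cacna1a the log2 ratios were -0.12 and -0.11, and -0.17 and -0.23 with the stricter division. For Cacna1d they were -0.10 and -0.06, which became 0.031 and 0.025 with the stricter division, and for Cacna1b -0.01 and 0.01. Cacna1i had the highest ratios, 0.40 in WT and 0.22 in HET, but 0.25 and -0.06 with the stricter division. Cacna1g had ratios of -0.32 and -0.11, and -0.20 and -0.03 with the stricter division. Cacna1h had ratios of -0.29 and -0.37, but 0.48 and 0.06 with the stricter division. The size or sign of both thus depended on the rule. Cacna1e, Cacna1c and Cacna1a were thus lower in inhibitory nuclei under both divisions and in both libraries. Cacna1g was lower there too, but not always beyond counting error. In the stricter division its WT levels were 31.2 CPM (25.2 to 38.2) in glutamatergic and 27.3 (24.8 to 29.9) in inhibitory nuclei. In HET they were 30.2 (25.2 to 36.0) and 29.7 (26.5 to 33.1). Cacna1e and Cacna1c had nearly equal ratios in WT under the stricter one. Under the first division the inhibitory HET level of Cacna1c (517 CPM) lay above its glutamatergic WT level (506 CPM). The division rests on sparse genes of which background RNA also appears in glia.

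Within clusters Cacna1c was higher in the HET library nearly everywhere. It was higher in 11 of 12 clusters, in all 11 beyond counting error, with log2 ratios from -0.03 in epend.1 to 1.44 in endo and a median of 0.44. In endo, whose subclusters made up different shares of the libraries (177 WT and 81 HET nuclei in endo/17, 45 and 41 in endo/29), the log2 ratios within them were 1.16 and 0.80. In neuron.1, the largest cluster, it was at 455 CPM in WT and 531 in HET (log2 ratio 0.22, 0.19 to 0.25), in astro at 72.4 and 104 CPM (0.52, 0.23 to 0.82) and in oligo at 90.9 and 128 CPM (0.50, 0.35 to 0.65). It was past the threshold in 8 clusters. As background, of the 4534 genes with at least 20 UMIs in each of the 12 clusters 10.2% were higher in HET in at least 11, and of the 1422 of these genes that span at least 100 kb 21.4% were.

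Over subclusters the direction was the same throughout. Cacna1c was higher in HET in 27 of 27 subclusters, 21 of them beyond counting error, with log2 ratios from 0.01 (neuron.2/12) to 1.87 (oligo/6, from 3 WT UMIs). In all 13 neuronal subclusters it was higher, 12 beyond counting error, with a median of 0.29, and in all 14 non-neuronal ones, 9 beyond counting error, with a median of 0.55. Of the 1383 genes with at least 20 UMIs in each of these subclusters 0.723% were higher in HET in all 27, and of the 626 long ones 0.639%. All clusters and subclusters come from the same WT and HET library, so they are not replicates. The part of RNA that drifts from neurons into other droplets in the non-neuronal ratios was not tested.

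Cacna1a and Cacna1d were lower in HET in most neuronal groups. Cacna1a was lower in 8 of 12 clusters, 7 of them beyond counting error, and Cacna1d also in 8 of 12, 7 beyond counting error. Of the genes with at least 20 UMIs in each of the 12 clusters 44.9% were lower in at least 8, and of the long ones 12%. The criteria of 11, 27 and 8 groups in these backgrounds were chosen after the members' values were seen. Among neuronal subclusters Cacna1a was lower in 12 of 13 (11 beyond counting error, median -0.26) and Cacna1d in 11 of 13 (10 beyond counting error, median -0.23). Among non-neuronal subclusters they were lower in 5 and 7 of 14, so the direction was mixed there. The share of all genes lower in as many neuronal or non-neuronal subclusters was not taken, so these subcluster counts have no background.

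In neuron.1 Cacna1a was at 736 CPM in WT and 609 in HET (log2 ratio -0.27) and Cacna1d at 522 and 432 CPM (-0.27). In neuron.3 Cacna1a had its lowest ratio, with 1042 CPM in WT and 778 in HET (-0.42, -0.51 to -0.33), while Cacna1d was at 507 and 476 CPM (-0.09, -0.21 to 0.03). In neuron.4 Cacna1d was at 386 and 244 CPM (-0.66, -0.79 to -0.53). Cacna1a thus had the lower ratio in neuron.3 and Cacna1d in neuron.4. In neuron.1 10.8% of the 14638 genes with at least 200 UMIs were higher and 27.4% lower past the threshold, and no member was called there.

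The other members varied between cell classes. Cacna1e was higher in HET in 9 of 12 clusters and was called higher in 5, among them oligo with 18.1 CPM in WT and 37.0 in HET (log2 ratio 1.03, 0.70 to 1.36) and neuron.4 with 307 and 432 CPM (0.49, 0.36 to 0.62). Cacna1b was lower in HET in 8 of 12 clusters, 3 of them beyond counting error. Cacna1g was higher in 6 of the 8 clusters with at least 20 UMIs, 5 beyond counting error, and Cacna1i in 6 of 6, of which 2 were beyond counting error. In neuron.1 the log2 ratios of Cacna1g and Cacna1i were both 0.30 (0.20 to 0.39 and 0.18 to 0.43). Cacna1h was higher in 3 of 6 clusters and lower in 3, at 10.6 CPM in WT and 9.84 in HET in neuron.1.

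Of the 5 members with at least 200 UMIs in oligo, Cacna1b, Cacna1c, Cacna1d and Cacna1e were called higher, and Cacna1a was at 146 CPM in WT and 126 in HET (log2 ratio -0.22). Of the 8036 genes with at least 200 UMIs in oligo 13.1% were higher and 27.0% lower. The T-type genes had 26 and 61 (Cacna1g), 20 and 49 (Cacna1h) and 14 and 34 UMIs (Cacna1i) in WT and HET, fewer than that minimum. Their log2 ratios were 0.80 for Cacna1g (0.11 to 1.52), 0.86 for Cacna1h (0.08 to 1.69) and 0.85 for Cacna1i (-0.09 to 1.86). Of these only Cacna1i did not differ beyond counting error. The subclusters of oligo were nearly library-specific, with 39 WT and 827 HET nuclei in oligo/6 and 825 WT and 35 HET nuclei in oligo/8. Cacna1b differed beyond counting error in 0 of the 8 non-neuronal subclusters with a ratio. In oligo/2, with 768 and 789 nuclei, the log2 ratios were 0.36 for Cacna1c (0.14 to 0.57), 0.94 for Cacna1e (0.40 to 1.50) and -0.27 for Cacna1a (-0.45 to -0.09), which is the same direction as over the whole cluster.

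**Figure D3:**
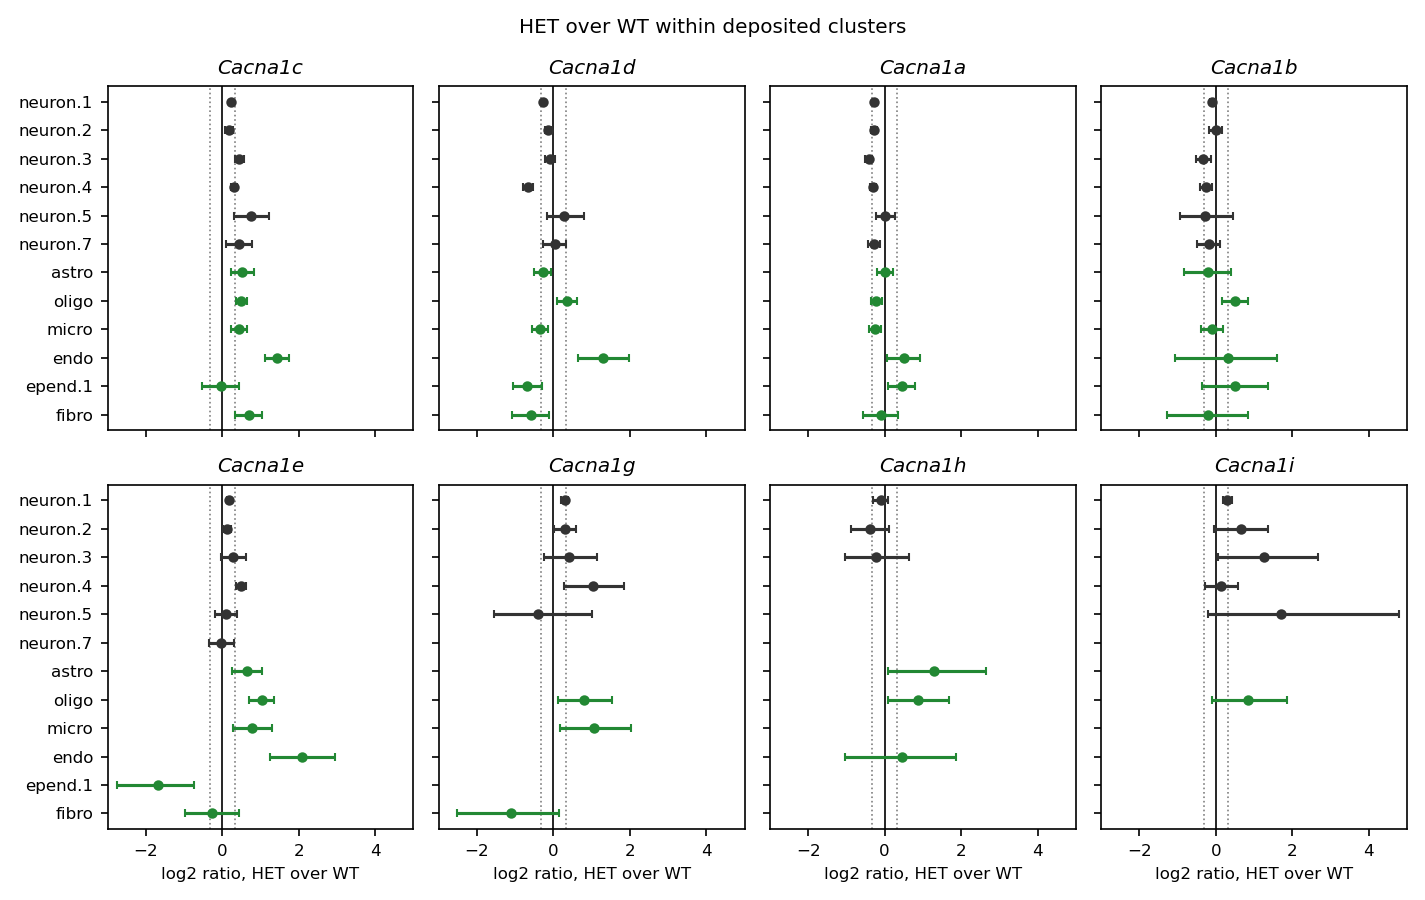
Log2 ratio of HET over WT of each gene within deposited clusters, as points with exact 95% counting intervals, neuronal clusters in dark grey and others in green; dotted lines mark the threshold. Clusters with under 20 UMIs of a gene are left blank. Cacna1c lies right of 0 in all clusters but epend.1, while Cacna1a and Cacna1d lie left of 0 in neuron.1 to neuron.4.

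A measure free of the scaling of the libraries is the share of Cacna1c among the UMIs of both CaV1 genes. Over all nuclei it was 46.5% in WT (46.1 to 46.9) and 57.9% in HET (57.5 to 58.3). It was higher in HET in 12 of 12 clusters, and in 7 of them the exact intervals of the libraries did not overlap (astro, fibro, micro and neuron.1 to neuron.4). In neuron.1 the shares were 46.6% and 55.1%, in neuron.4 65.7% and 78.8%, in astro 31.2% and 44.2% and in oligo 72.4% and 74.4%. By subcluster the HET share was higher in 13 of 13 neuronal groups, by 3.20 to 13.2 percentage points, and in 10 of 14 non-neuronal groups, with differences from -7.43 points in micro/28 to 31.7 points in astro/26. The ratio of the L-type genes thus differed in the same direction in every neuronal group compared, and in mixed directions elsewhere. The share is made of the same UMIs as the ratios of Cacna1c and Cacna1d given above, so it is no separate result. Other pairs of genes were not taken, so these counts of clusters and groups have no background.

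**Figure D4:**
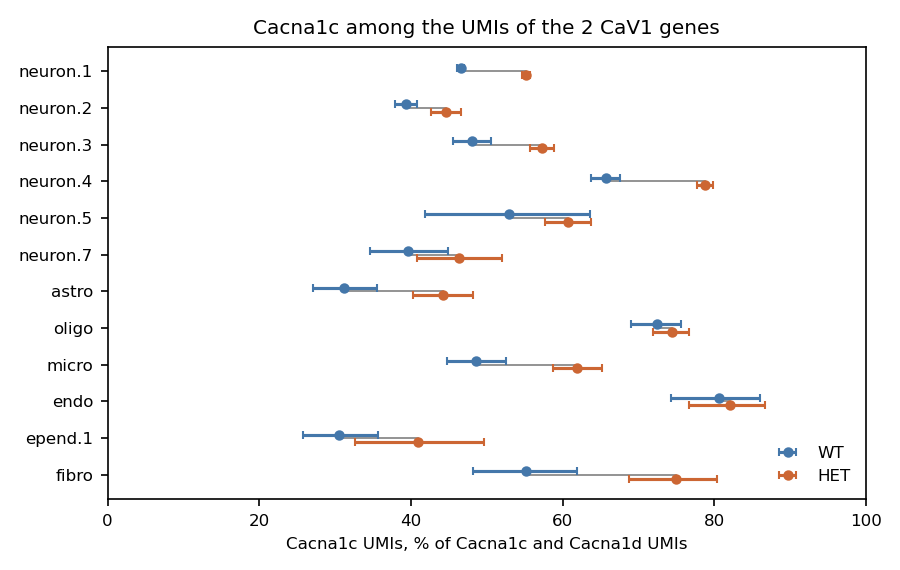
Share of Cacna1c in the UMIs of Cacna1c and Cacna1d, in percent, in each of 12 deposited clusters, WT in blue and HET in orange, with exact 95% binomial intervals for counting error. The HET point lies right of the WT point in every cluster, and the intervals overlap in endo, epend.1, neuron.5, neuron.7 and oligo.

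The UMIs of a family were set between libraries and clusters, but not against another family, since they are not corrected for gene length. CaV1 UMIs made 42.0% of the UMIs of the 8 genes in WT and 44.6% in HET, CaV2 UMIs 55.0% and 52.0%, and CaV3 UMIs 2.98% and 3.41%. The CaV1 share ranged among WT clusters from 21.9% in neuron.7 to 57.5% in epend.1 and among HET clusters from 27.4% in neuron.7 to 63.3% in endo, over the 12 compared. The cluster neuron.7 was thus the one with the lowest CaV1 share in both libraries.

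Low levels in glia have to be read against RNA that drifts between droplets. In 4131 nuclei that both deposited labels called oligodendrocytes, Syt1 and Rbfox3, which oligodendrocytes should lack, stood at 8.56% and 10.8% of their level in neurons, and the transmitter transporter genes Slc17a6 and Slc32a1 at 52.5% and 79.5%. In the same nuclei Cacna1d was at 8.19% of its neuronal level (7.52 to 8.92), Cacna1b at 9.38%, Cacna1e at 9.98%, Cacna1a at 18.4% and Cacna1c at 21.8% (20.7 to 22.9). The T-type genes Cacna1g, Cacna1h and Cacna1i were at 15.6%, 47.1% and 15.6%, from 85, 69 and 48 UMIs, and the neuronal gene Snap25 at 21.0%. None of the members lay above the range of the neuronal genes. Its upper end was set by Slc17a6 and Slc32a1, at only 78.2 and 34.8 CPM in neurons, so a member had to pass 79.5% to exceed it. This comparison therefore cannot tell expression in oligodendrocytes from background. Per nucleus thinned to 1000 UMIs, 9.38% of oligodendrocytes and 38.0% of neuronal nuclei had a Cacna1c UMI, at median depths of 2807 and 8055 UMIs before thinning.

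In 1288 astrocytes Cacna1d was at 29.1% of its neuronal level (26.9 to 31.4), where Syt1, Snap25, Slc17a6 and Slc32a1 were at 7.75%, 19.4%, 52.4% and 75.6%. In 108 microglia it was at 67.3% (52.7 to 84.6, from 73 UMIs), where the same 4 genes were at 11.7%, 28.6%, 68.1% and 89.3%. Neither value lay above the range of the neuronal genes in the same nuclei, whose upper end was again set by Slc17a6 and Slc32a1. The comparison cannot tell expression in these glia from background either. In the microglia Cacna1e was at 3.12% of its neuronal level, from 2 UMIs. After thinning, 27.5% of the microglia had a Cacna1d UMI, 17.6% had one of Snap25 and 14.4% one of Syt1. In the micro cluster as a whole the label and the markers parted: in micro/18, of 76 WT and 109 HET nuclei, Csf1r and Cx3cr1 stood at 1.97 and 19.7 CPM against 555 and 696 in micro/20, and Cacna1a stood there at 798 CPM in WT and 578 in HET. The values of micro are therefore not those of microglia alone.

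The patterns over 16 neuronal groups were compared by Pearson's r of log2(CPM + 1), as a description, since the groups share libraries and were built from the counts. Between members r was highest for Cacna1d and Cacna1h (0.73), Cacna1e and Cacna1i (0.57) and Cacna1d and Cacna1g (0.54), and lowest for Cacna1h and Cacna1i (-0.47). With the 14 groups of at least 100 nuclei Cacna1d and Cacna1h were still the most alike (0.77), but Cacna1e and Cacna1g came next (0.65, from 0.30) and the lowest pair was Cacna1a and Cacna1b (-0.45, from 0.16). By Spearman's rho over the 16 groups Cacna1d and Cacna1g were the most alike (0.69), so the order of the pairs depended on the measure and the groups. Among 11648 genes with at least 1000 UMIs, those most like Cacna1a were Fcf1 (0.85), Tor3a (0.77) and its own antisense gene Gm16183 (0.77). For Cacna1b they were Slc39a11 (0.96), Stk33 (0.93) and 4931406C07Rik (0.92). The closest genes to Cacna1b thus had higher r than those to Cacna1a. With the 14 groups of at least 100 nuclei the same genes had 0.78, 0.62 and 0.56 with Cacna1a. For Cacna1b the values were 0.96, 0.92 and 0.88.

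For the CaV1 genes the nearest were Ap5m1 (0.88), Vps37a (0.82) and Hlf (0.80) to Cacna1c, and 4833422C13Rik (0.87), Fign (0.84) and 2900026A02Rik (0.83) to Cacna1d. All neighbours named are the highest of 11648 genes over few groups. With the 14 larger groups r was 0.63, 0.58 and 0.63 for the genes near Cacna1c. It was 0.85, 0.87 and 0.88 for those near Cacna1d. Cacna1e was followed by Maco1, Gpm6a, which encodes a neuronal membrane glycoprotein, and Efl1 (0.91, 0.91 and 0.90). For the T-type genes they were Ttc7, the NMDA receptor subunit gene Grin2a and Zfp653 for Cacna1g (0.87, 0.81 and 0.81). They were Ssbp2, 4833422C13Rik and Spock3 for Cacna1h (0.89, 0.86 and 0.86), and Ttyh1, Cntnap4 and Gm45904 for Cacna1i (0.90, 0.87 and 0.87). The gene 4833422C13Rik was near both Cacna1d and Cacna1h.

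The alpha1 subunit works with auxiliary subunits and with proteins that store, clear or sense calcium, and 56 such genes were followed in 9 lists. Of the 50 that reached 200 UMIs, 2 were called higher, 8 lower and 40 not called, against the 12.9% and 28.8% of all genes given above, and the median log2 ratio was 0.06. The alpha1 genes outside the members were near absent: Cacna1f gave 2.49 CPM in WT and 3.45 in HET (log2 ratio 0.47), and Cacna1s had 10 and 11 UMIs.

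Auxiliary subunits were called 3 times among 14 tested. Of the alpha2delta genes, whose products carry channels to the membrane, Cacna2d3 (493 CPM in WT and 500 in HET) and Cacna2d1 (325 and 375 CPM) were not called. Cacna2d2 was lower, at 133 and 100 CPM (log2 ratio -0.40), and Cacna2d4 higher, at 3.73 and 8.70 CPM (1.22). Cacna2d4 had its highest level in oligo, at 18.0 CPM in WT and 28.1 in HET. Of the beta genes, which traffic and gate CaV1 and CaV2 channels, Cacnb3 was lower, at 10.8 and 7.87 CPM (-0.46), while Cacnb2 (415 and 471 CPM) and Cacnb4 (259 and 284 CPM) were not called. None of the 6 gamma and TARP genes tested was called, Cacng2 being at 92.2 and 114 CPM and Cacng7 at 60.7 and 55.3.

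Among calcium stores and entry, 0 of 11 genes were higher and 2 were lower, Itpr3 (4.52 CPM in WT and 2.96 in HET) and the store-operated channel gene Orai1 (9.90 and 6.41 CPM). The ryanodine receptor genes Ryr2 and Ryr3 had log2 ratios of 0.05 and 0.03. None of the 8 clearance genes tested was called, with Slc8a1, the sodium-calcium exchanger, at 680 and 808 CPM and the pump gene Atp2b2 at 343 and 420 CPM, and a list median of 0.23. The 6 active zone partners of CaV2 channels, led by Rims2 (879 and 918 CPM) and Rims1 (843 and 853 CPM), had ratios between 0.02 and 0.15 and no call. The 4 calcium-activated potassium channel genes tested were not called either, Kcnma1 being at 529 and 633 CPM and Kcnn2 at 352 and 392 CPM.

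The channel modulators moved most. Of 6 genes 4 were lower in HET and none higher. Calm2, which encodes calmodulin, the calcium sensor bound to CaV1 and CaV2 channels, was at 272 CPM in WT and 147 in HET (log2 ratio -0.89). Calm3 was at 41.0 and 34.8 CPM (-0.24). Stac, an adaptor of L-type channels, was at 66.0 and 29.2 CPM (-1.18) and Stac3 at 7.10 and 4.87 CPM (-0.54). Calm2 and Stac3 span 13.5 and 7.14 kb and Stac spans 129 kb, beside median log2 ratios of -0.10 over all genes and 0.10 over those of at least 100 kb. The part of gene length in their ratios was not tested.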

How the data were processed

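Nuclei of 1 WT and 1 HET brainstem were profiled with droplet 3' chemistry. The deposited UMI counts per gene and nucleus were made by the authors with Cell Ranger on its default mm10 reference (version and intron or strand settings not given in the sources used here) and Seurat 4.1, per the labels, and nuclei carry the authors' cluster, subcluster and reference labels. The deposited nuclei metadata also held a doublet score and percent values of mitochondrial and ribosomal reads from the authors. Their methods state filters on genes per nucleus and mitochondrial reads, and every deposited nucleus was already marked a singlet. The methods list genes they removed, which are not analysed here.

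UMIs were summed per library and cluster and divided by the same nuclei's total (Python 3.11.15, numpy 2.4.6, scipy 1.17.1). Exact 95% Poisson, Clopper-Pearson and conditional binomial intervals cover counting error only, and 3 UMIs in a whole library correspond to 0.0427 CPM in WT and 0.0453 CPM in HET. Gene spans came from GENCODE vM21, matched by symbol for 24921 of 25556 genes. A neuronal nucleus with a UMI of a vesicular glutamate transporter gene (Slc17a6 to Slc17a8) counted as glutamatergic if it lacked those of Gad1, Gad2, Slc6a5 and Slc32a1, and as inhibitory in the reverse case. The stricter division asked for at least 5 UMIs and 5 times those of the other class. Named genes were the 8 members, the list genes past the threshold of 0.32 on the log2 scale, the 2 with the most UMIs in each list, and the 3 most like each member, of which 1 list gene is not reported here. The members and lists were chosen with earlier results of these data known. The ratio and thinning steps were tested on simulated counts.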

Additional observations from a re-analysis of the deposited data

Results flagged for a closer look

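For 4 members the ratio of HET over WT pointed in opposite directions in a pair of clusters, each past the threshold of 0.32 and beyond counting error. The difference between the clusters was not tested. As background, 48.7% of the genes with at least 20 UMIs in all 12 clusters, and 47.5% of the long ones, passed it upward in 1 cluster and downward in another, without regard to counting error. Cacna1a had a log2 ratio of 0.493 in endo and of -0.422 in neuron.3. Cacna1b had 0.499 in oligo, from 108 and 206 UMIs, and -0.328 in neuron.3. The subclusters of oligo were nearly library-specific, as given above. Over the 8 non-neuronal subclusters with a ratio, Cacna1b was higher in HET in 5 and lower in 3, none beyond counting error. Cacna1d had 1.30 in endo, from 36 and 43 UMIs, and -0.681 in epend.1, from 243 and 81 UMIs. Cacna1e had 2.08 in endo, from 19 and 39 UMIs, and -1.68 in epend.1, from 66 and 11 UMIs.

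The make-up of endo differed between the libraries, with 177 WT and 81 HET nuclei in endo/17 and 45 and 41 in endo/29. Within endo/17 the log2 ratios were 0.57 for Cacna1a (0.10 to 1.04), 1.58 for Cacna1d (0.76 to 2.42) and 1.98 for Cacna1e (1.06 to 2.94) against 2.08 over the cluster for the last. The make-up of epend.1 differed as well, with 82 WT and 42 HET nuclei in epend.1/23 and 47 and 3 in epend.1/32, where the ependymal gene Foxj1 had 0 UMIs. Within epend.1/23 the log2 ratios were -0.80 for Cacna1d and -1.45 for Cacna1e.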

How the results depend on the processing

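No paired analysis was possible because each genotype has 1 library, both numbered 1, and no test was made. The count of members past the threshold upward, 1, became 2 with the median ratio of all genes set to 0, 0 without the 5% highest doublet scores, without neuron.5, in neuron.1 only and at 1.5-fold, and 6 in glial and vascular nuclei on whose type both deposited labels were at one. The count downward, 1, became 0 with that median set to 0, with the same cluster weights in both libraries, in neuron.1 only, in those glial and vascular nuclei and at 1.5-fold, and 2 with the mean of CPM over nuclei. In the glial and vascular nuclei Cacna1d reversed to 0.085, and Cacna1b and Cacna1h, which were not called, turned from -0.21 to 0.43 and from -0.23 to 0.80. No share of all genes past the threshold is given for those nuclei, so the counts of 6 and 0 there have no background. For the oligodendrocytes among them the comparison above could not tell the members' levels from background RNA. The inhibitory over glutamatergic log2 ratio of Cacna1h in HET reversed from -0.37 to 0.061 in the strict division. Genes higher in HET made 22.2% of all with at least 1 UMI instead of 12.9%, and 10 list genes instead of 2 were higher with the median set to 0, where 18.1% of all genes were higher and 21.1% lower. The cause of these changes was not tested beyond what each setting removes. Cacna1c lay between 0.22 and 0.50 and Cacna1a between -0.34 and -0.14 over all alternatives, with the same sign as reported in each. Within clusters, with each cluster's median set to 0, Cacna1c was higher in HET in 12 of 12 clusters, Cacna1a and Cacna1d were lower in 9 of 12 each, and Cacna1i was higher in 6 of 6. The settings for neuron.1, the shares of all genes with the median at 0, the glial and vascular nuclei and the shared barcodes were chosen after seeing the data, and leaving out the 23 shared barcodes changed no call. The depth limits the T-type genes most, with 603 to 2410 UMIs a library.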
